A study of Mus musculus with 4 samples.

Results

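Apoe, Apoc1, Abca1, Scarb1 and Npc2 are 5 mouse genes that carry, move or take up cholesterol and lipoproteins. They were chosen by name, with earlier results of these data known. All 5 were found among the 16892 genes counted in single cells of the mouse epididymis and vas deferens. This is the duct in which sperm mature and are stored. The tissue came from FVB/NJ male mice aged 10 to 12 weeks. In total 8 epididymides of 4 mice were cut into 4 segments, the caput, corpus, cauda and vas deferens, and the 8 pieces of each segment were pooled, cleared of sperm, dissociated and made into 1 droplet library per segment. No animal was treated or carried an engineered allele. Because each segment is 1 library of pooled animals, there was no replicate. A difference between segments cannot be told apart from a difference between libraries, and the intervals below cover counting error only.

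The 4 libraries held 8880 cells with a median of 1858 UMIs (unique molecular identifiers, each of which stands for 1 captured transcript). The libraries held 1433 to 3506 cells each, with medians of 1433 to 2207 UMIs per cell, so the vas deferens was sampled most deeply. The study's own annotation gave 34 populations, which fell into 7 types: 3956 principal, 2222 stromal, 1412 basal, 502 muscle, 348 clear, 245 endothelial and 195 immune cells. The defining markers of each type were all above 0 in that type. In groups of 195 cells or more this is a weak check of the labels. Some small groups described below had markers that went against their label. Levels are given in UPM, the UMIs of a gene per 1000000 UMIs of the group of cells, with a 95% Poisson interval. Reads were taken at the 3' ends of transcripts, and no length scaling applies.

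Epithelial cells, macrophages and stromal cells handle cholesterol through a shared set of proteins. Apolipoproteins such as ApoE coat lipid particles outside the cell, ABCA1 loads cellular cholesterol onto apolipoproteins, and the receptor SR-BI, the product of Scarb1, moves cholesterol esters between particles and cells. NPC2 binds cholesterol in the lysosome and hands it to NPC1, and it is also one of the secreted proteins of epididymal fluid. Sperm lose and gain lipids as they pass along the duct, and cholesterol leaves their membranes during capacitation.

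The 5 genes lie at 4 places in the genome, given here on GRCm38 with the spans of GENCODE M21. All are protein-coding genes of the minus strand. Apoe (ENSMUSG00000002985) spans chr7:19696109-19699188, and Apoc1 (ENSMUSG00000040564) spans chr7:19689481-19692660. Apoc1 and Apoe are therefore neighbours, with 3448 bases between them. Abca1 (ENSMUSG00000015243) spans chr4:53030787-53159895. Scarb1 (ENSMUSG00000037936) spans chr5:125277087-125341094, and Npc2 (ENSMUSG00000021242) spans chr12:84754562-84773152.

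The 250 bases before the RefSeq transcription start (as listed in a RefSeq promoter table) are shown for 3 of the genes, since Apoe and Abca1 had the most similar pattern of any pair of the 5 over cell populations and Npc2 had the highest peak in one stretch of the duct. No sequence is shown for Apoc1 and Scarb1. The sequences are from the RefSeq minus strand of GRCm38.p6, at chr7:19699189-19699438 for Apoe (the farthest upstream of 3 starts in that table), chr4:53159896-53160145 for Abca1 and chr12:84773113-84773362 for Npc2. The RefSeq gene spans reach further upstream for Apoe, to base 19701310, and for Abca1, to base 53159988, so these 2 windows lie in part or whole inside the RefSeq gene and directly before the GENCODE start. Capitals mark matches, on either strand, to the GC box GGGCGG, the E-box CACGTG, the TATA box TATAAA, the nuclear receptor motif AGGTCA or the CCAAT box CCAAT.
Apoe: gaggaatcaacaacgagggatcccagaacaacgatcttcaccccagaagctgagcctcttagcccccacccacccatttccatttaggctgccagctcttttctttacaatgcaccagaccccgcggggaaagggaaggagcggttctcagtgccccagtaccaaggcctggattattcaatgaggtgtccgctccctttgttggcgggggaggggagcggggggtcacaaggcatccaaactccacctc
Abca1: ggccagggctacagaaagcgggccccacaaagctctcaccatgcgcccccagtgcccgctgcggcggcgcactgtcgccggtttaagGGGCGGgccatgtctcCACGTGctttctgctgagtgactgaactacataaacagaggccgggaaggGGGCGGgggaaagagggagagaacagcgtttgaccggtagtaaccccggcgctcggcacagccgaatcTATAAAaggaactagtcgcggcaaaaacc
Npc2: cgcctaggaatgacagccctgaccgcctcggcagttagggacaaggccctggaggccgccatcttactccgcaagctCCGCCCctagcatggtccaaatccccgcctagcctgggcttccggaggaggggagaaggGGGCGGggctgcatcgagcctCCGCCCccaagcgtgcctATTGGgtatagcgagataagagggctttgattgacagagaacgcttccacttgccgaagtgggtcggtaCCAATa

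The Abca1 window held 2 GC boxes, 1 E-box and 1 TATA box, the last at 29 to 24 bases before the start. The Npc2 window held 3 GC boxes and 2 CCAAT boxes, and none of the 5 motifs was in the Apoe window. Among 32851 promoter windows of the same length, 32.7% held the GC box, 6.02% the E-box, 12.4% the TATA box, 14.02% the nuclear receptor motif and 33.9% the CCAAT box. GC content was 57.2% for Apoe, 61.6% for Abca1 and 62.0% for Npc2, against a median of 52.4% over all windows. These matches describe the letters only.

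Apoe, which encodes the main apolipoprotein made outside the liver, was the gene with the most UMIs in basal cells, the small cells that lie on the basement membrane below the epithelium. Its level there was 24600 UPM. Immune cells came next at 15969 UPM, a ratio of 1.54 (1.51 to 1.57). Stromal cells followed at 4616 UPM and endothelial cells at 2466 UPM, and the level was far lower in the luminal epithelium, with 402 UPM in principal cells and 348 UPM in clear cells, and in muscle cells with 117 UPM. Every step in this order was larger than its counting error, but the order of principal and clear cells depended on which cells were kept. Principal cells without a UMI of the basal markers Krt5, Krt14 or Trp63 held 162 UPM. Clear cells without 13 vas deferens cells whose markers went against the clear cell label held 242 UPM. These filters are unlike, so the values do not settle which of these types was higher. Basal cells held 76.9% of all Apoe UMIs. By the rule used for all genes, a gene leads a type where it has at least 20 UMIs there and stands at least 2 times above each other type, and Apoe led none.

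**Figure D1:**
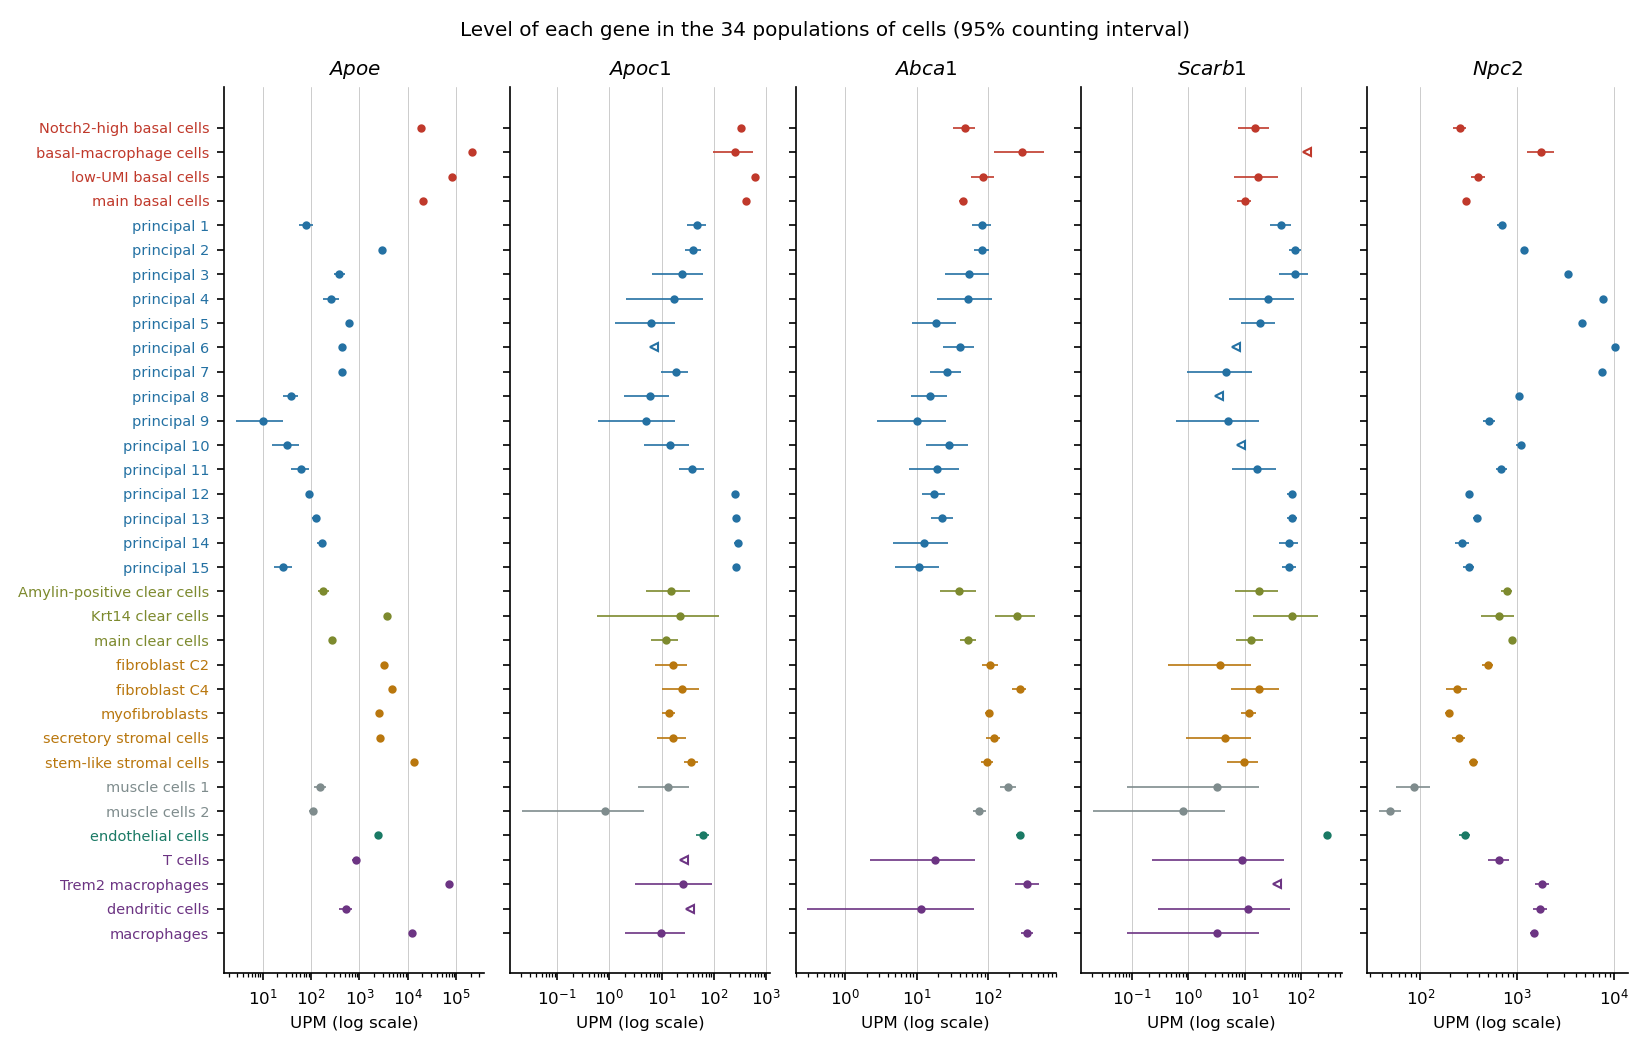
Level of each of the 5 genes in the 34 cell populations, in UPM on a log axis. Points are sums over all cells of a population, bars are 95% Poisson intervals, and open triangles mark populations with 0 UMIs, drawn at the level that 3 UMIs would give. Apoe is highest in the basal and Trem2 macrophage populations, Apoc1 in basal cells and in principal 12 to 15, Scarb1 in endothelial cells and Npc2 in principal 3 to 7.

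Nearly every basal cell held Apoe. After each cell was thinned to 1000 UMIs, 1145 of 1155 basal cells (99.1%, 98.4 to 99.6) had at least 1 Apoe UMI, and 257 shallower basal cells were left out. Without thinning the share was 97.5% in basal cells and 9.09% in T cells. The same share of thinned cells was 6.67% (2 of 30) in T cells, lymphocytes not known for Apoe, 8.08% in principal cells and 8.26% in muscle cells. The median depth was 4333 UMIs in basal cells and 2206 UMIs in T cells before thinning.

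The low end of the Apoe counts has a shape that limits such shares. No cell of the caput, corpus or vas deferens library held exactly 1 Apoe UMI, whereas 73, 147 and 153 cells held 2, and in the cauda library 6 cells held 1. Npc2 behaved in the same way, since no cell of the 3 epididymal libraries held 1 UMI and the lowest count above 0 in the corpus was 3. In the vas deferens 637 cells held 1 Npc2 UMI. Apoc1, Abca1 and Scarb1 had cells with 1 UMI in every library. The study subtracted cell-free RNA from these counts before deposit, and between 4.03% and 10.5% of genes with at least 200 UMIs in a library had no cell at 1 UMI. A cell listed at 0 for Apoe or Npc2 can therefore not be read as a cell without that transcript, and the part of the subtraction in the low levels was not tested.

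Along the duct, Apoe in basal cells was 30531 UPM in the caput, 28992 UPM in the corpus, 18246 UPM in the cauda and 14889 UPM in the vas deferens. The level thus stepped down from the first library to the last, and the caput was 2.05 times the vas deferens (2.02 to 2.09). Main basal cells alone kept this order, with 26632, 22913, 16761 and 14166 UPM. Immune cells as a whole also stepped down, with 27776, 24509, 18258 and 11398 UPM, but this went with the mix of populations, since Trem2 macrophages were 3 of 11 immune cells in the caput and 10 of 118 in the vas deferens. Without Trem2 macrophages the direction turned, with 2771, 5334, 8373 and 8331 UPM. The caput value then rested on 65 UMIs in 8 cells, and these groups still mixed macrophages with T cells and dendritic cells. From caput to vas deferens the ratio of basal to immune cells was 1.10, 1.18, 0.999 and 1.31, so that the 2 types were not apart in the cauda (0.953 to 1.05). Stromal cells ran the other way, with 3297, 2041 and 2343 UPM in the 3 epididymal libraries and 8138 UPM in the vas deferens. This too went with the mix, since 517 of the 1015 stromal cells of the vas deferens were of the stem-like population, and without that population the levels were 3173, 1999, 2263 and 3708 UPM and the vas deferens was 1.17 times the caput (1.11 to 1.23). Endothelial cells held 2542, 1789, 1218 and 2892 UPM in the same order.

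**Figure D2:**
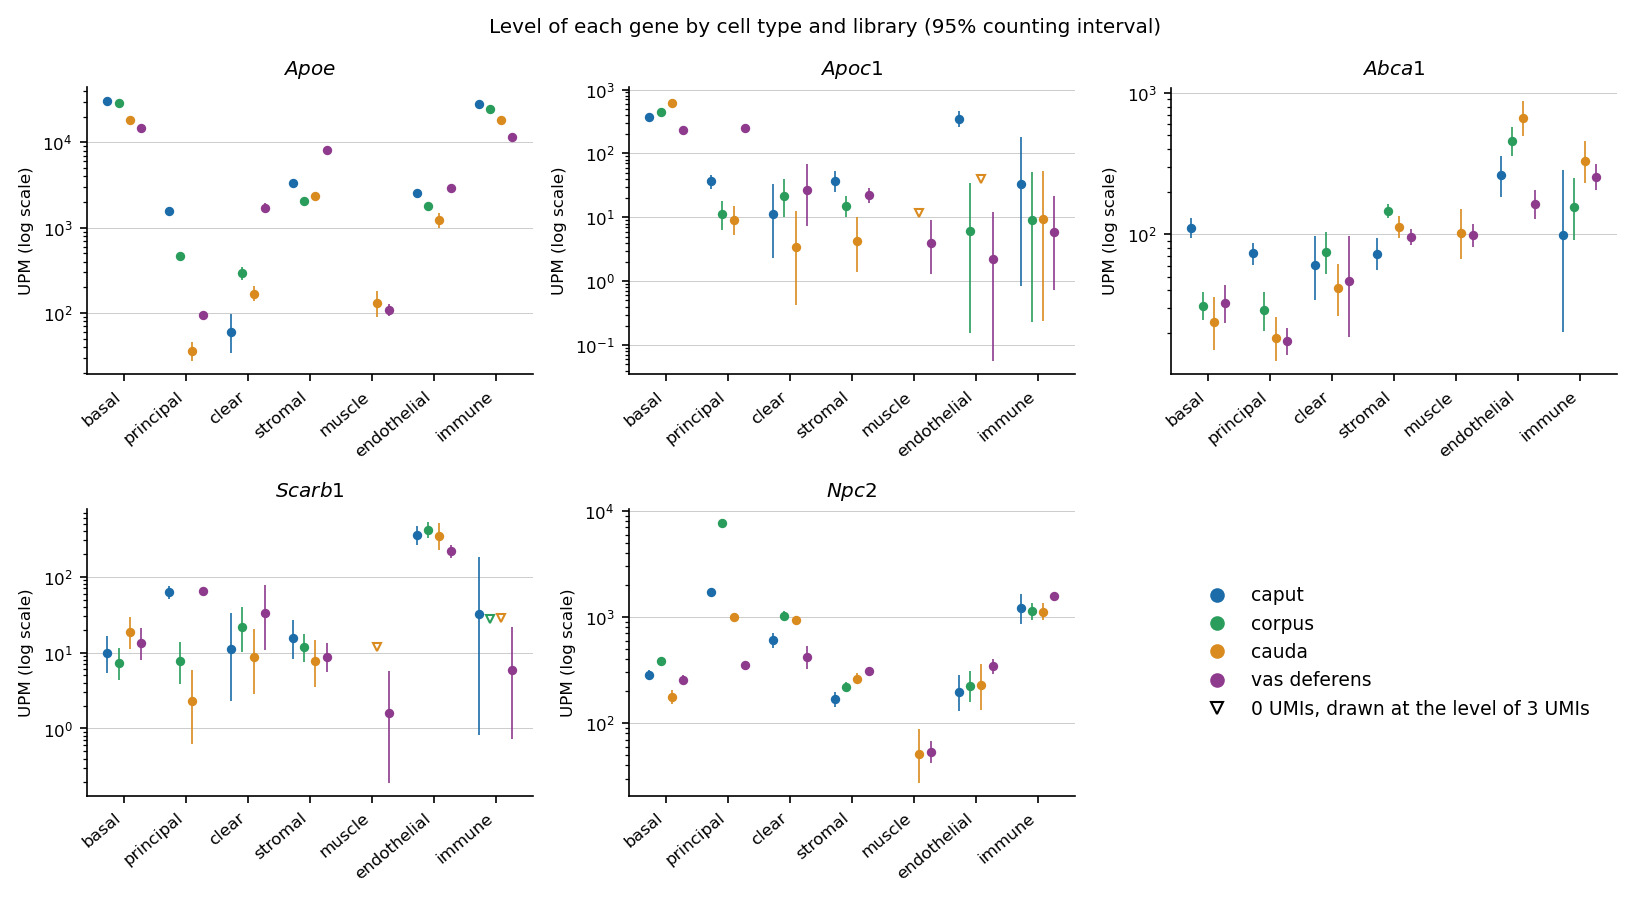
Level of each gene in UPM, on a log axis, in the 7 cell types, with 1 colour for each of the 4 libraries and 95% Poisson bars. Groups of fewer than 10 cells are left out. In basal cells Apoe steps down from 30531 in the caput to 14889 in the vas deferens, and in principal cells Npc2 peaks at 7728 in the corpus and Apoc1 at 250 in the vas deferens.

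The basal populations differed in Apoe. Main basal cells (917 cells) held 20927 UPM and Notch2-high basal cells (165 cells) held 18425 UPM. Low-UMI basal cells (315 cells, with a median of 900 UMIs against 5654 in main basal cells) held 80195 UPM, or 3.83 times the main level (3.78 to 3.88). From caput to vas deferens the ratio was 2.63, 4.31, 4.37 and 3.26. Counted per cell the order was reversed, with a median of 105 Apoe UMIs in main basal cells and 80 in low-UMI basal cells. The higher share of Apoe in low-UMI cells thus went with fewer UMIs of other genes and not with more Apoe UMIs. Apoc1 was 1.51 times higher in low-UMI than in main basal cells (1.31 to 1.74) and Abca1 1.89 times (1.24 to 2.78). Npc2 was 1.34 times higher (1.12 to 1.61), and the interval for Scarb1 held 1 (0.620 to 4.12). Mean UMIs per cell again had the other order. Low-UMI basal cells held 0.670 Apoc1 UMIs against 2.287 in main basal cells, 0.0921 against 0.252 for Abca1 and 0.425 against 1.635 for Npc2.

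The highest Apoe level of the 34 populations, 210159 UPM, was in the 15 cells named as basal macrophages. Their markers went against a basal identity. They held 5349 UPM of C1qa and 11084 UPM of Lyz2, both macrophage genes, 2 UMIs of Krt14 (85.6 UPM) and 0 of Trp63. The summed level of 11 macrophage markers was 29399 UPM, close to the 26035 UPM of Trem2 macrophages. Without these 15 cells the basal level of Apoe was 23896 UPM. Without the 119 basal cells that held any macrophage marker UMI it was 24491 UPM.

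**Figure D3:**
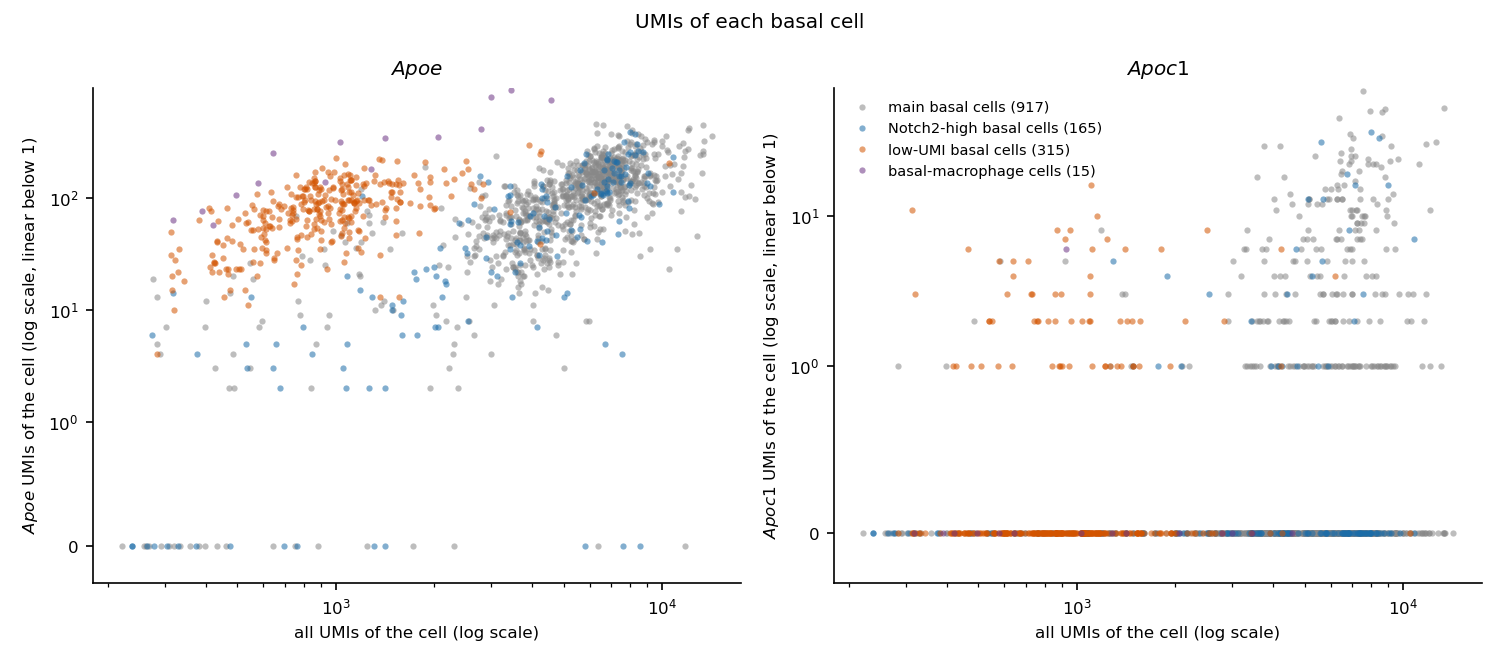
UMIs of Apoe (left) and Apoc1 (right) against all UMIs of the cell, for each of the 1412 basal cells, coloured by the 4 basal populations. Apoe counts lie in a band that rises with depth in main basal cells, with a median of 105 per cell, and low-UMI basal cells lie at the left with a median of 80, whereas most cells have no Apoc1 UMI.

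Among immune cells, Apoe was highest in the macrophages with Trem2, a lipid-sensing receptor. The populations were clustered on the counts of these same cells, so the values of populations within a type are descriptions. Trem2 macrophages (26 cells) held 69602 UPM and the other macrophages (104 cells) 12029 UPM, a ratio of 5.79 (5.55 to 6.04). Within the vas deferens library alone, 54433 UPM stood against 12961 UPM, a ratio of 4.20 (3.92 to 4.50). T cells held 852 UPM and dendritic cells 520 UPM. The immune level is therefore that of its macrophages. Among stromal cells the stem-like population, of which 517 of 549 cells came from the vas deferens, held 13628 UPM against 2693 UPM in the other stromal cells, and within the vas deferens 13923 UPM against 3708 UPM, a ratio of 3.75 (3.64 to 3.88).

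In principal cells, the tall secretory cells that line the lumen, Apoe was 1553 UPM in the caput, 470 UPM in the corpus, 35.6 UPM in the cauda and 94.2 UPM in the vas deferens. The caput was 43.6 times the cauda (33.9 to 57.0), or 78.9 times without called doublets. The caput value rested on few cells. It came mostly from principal 2, a caput population with 2900 UPM, in which 75 of 353 cells held an Apoe UMI and 51 cells over 5000 UPM held 2367 of its 2448 UMIs. Those 51 cells held 279 UPM of Krt14, a basal keratin, against 12.9 UPM in the other 302 cells. Without the cells that held a UMI of Krt5, Krt14 or Trp63, the genes that mark basal cells, Apoe fell to 978 UPM in principal 2, to 507 UPM in caput and 304 UPM in corpus principal cells and to 162 UPM in all principal cells. The part of basal cell RNA in the rest was not tested.

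Clear cells, the acid-secreting cells of the epithelium, had an Apoe level of 60.2 UPM in the caput, 293 UPM in the corpus, 169 UPM in the cauda and 1722 UPM in the vas deferens. Part of the vas deferens value came from 13 cells named as Krt14 clear cells. All 13 held Apoe (157 UMIs, 16310 UPM) and 12 held Krt14, whereas none held a UMI of the clear cell genes Atp6v1g3, Atp6v0d2 or Foxi1. Their markers thus went against the clear cell label. Without them the vas deferens clear cells held 720 UPM, still above the other libraries and 11.98 times the caput (7.03 to 21.8). That value rested on 101 UMIs in 8 of 25 cells, with 28 in 1 cell. The 25 cells still held 78.5 UPM of Krt14 (11 UMIs in 2 cells), and 14 of them held Atp6v1g3. The part of basal cell RNA in them was not tested. Without the 13 cells the level over all clear cells was 242 UPM.

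Apoc1 encodes a small apolipoprotein that travels on lipid particles and lies next to Apoe. It led basal cells with 413 UPM, against 132 UPM in principal cells (ratio 3.12, 2.92 to 3.34). Apoc1 and Scarb1 were 2 of the 5 genes that led a type, against 24.0% of all 12868 genes tested, and 1.54% of those genes led basal cells. The study had already named Apoe and Apoc1 as high in basal cells from these same data. The 5 genes were chosen with such results known, so these shares are descriptions only. Endothelial cells followed with 61.1 UPM, but 47 of their 51 UMIs were in 1 caput cell that also held 118 Apoe UMIs, 5 Krt5 UMIs and no UMI of an endothelial marker. Without that cell, caput endothelial cells had 14.8 UPM (1.80 to 53.5). Stromal cells had 18.8 UPM, clear cells 13 UPM, immune cells 8.59 UPM and muscle cells 3.28 UPM, and no neighbours among these 4 differed beyond counting error.

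Apoc1 had a pattern along the duct unlike that of Apoe. In basal cells it was 370 UPM in the caput, 453 UPM in the corpus, 621 UPM in the cauda and 237 UPM in the vas deferens, so the cauda was highest and 2.62 times the vas deferens (2.29 to 3.01). In principal cells it was 36.6, 11.3 and 9.20 UPM in the caput, corpus and cauda and 250 UPM in the vas deferens, or 27.2 times the cauda (16.6 to 47.7). The vas deferens populations principal 12 to 15 held 255 to 287 UPM each and 262 UPM together, against 20.4 UPM in principal 1 to 11 (12.8 times, 10.5 to 15.8). Few cells carried these levels, since 15.7% to 25.1% of the cells of principal 12 to 15 held any Apoc1 UMI, and 1 cell held 31.6% of the Apoc1 UMIs of principal 14. In the vas deferens, basal and principal cells were not apart in Apoc1 (ratio 0.949, 0.836 to 1.07). The lead of basal cells therefore holds for the 3 epididymal libraries, where the ratio of basal to principal cells was 10.1, 40.2 and 67.5 and, with the 3 together, 23.7.

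**Figure D4:**
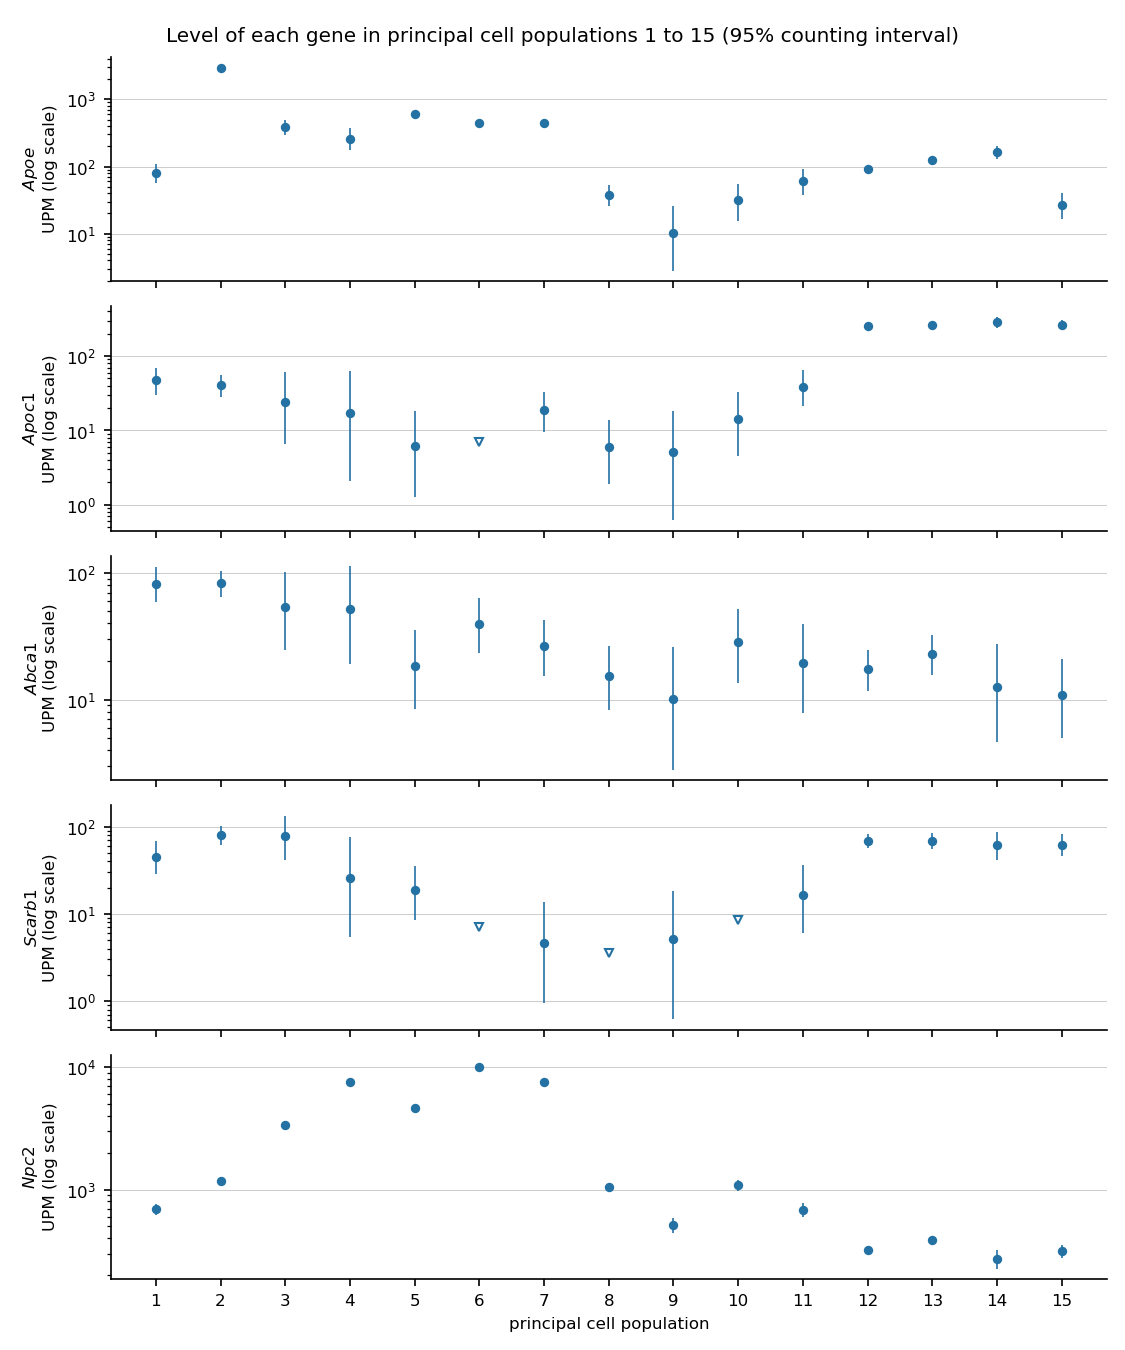
Level of the 5 genes in principal 1 to 15, in UPM on a log axis with 95% Poisson bars. Principal 1 to 11 are epididymal and run roughly from caput to cauda, and principal 12 to 15 are of the vas deferens. Npc2 peaks at 10083 in principal 6, Apoc1 is 255 to 287 in principal 12 to 15, and Scarb1 is at 0 UMIs in principal 6, 8 and 10.

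Apoc1 was detected in fewer basal cells than Apoe. Of the thinned basal cells 16.5% (190 of 1155) had an Apoc1 UMI (25.0% without thinning). This stood against 6.86% of principal cells and 0 of 30 T cells, where a floor of 3 cells would be 10.0%. All 190 basal cells with Apoc1 also held Apoe, which nearly all basal cells did. Of the 10 basal cells listed without Apoe 0 held Apoc1, which permits up to 30.85%. A cell listed at 0 for Apoe may still carry the transcript. When basal cells were ranked in 4 equal groups by Apoe UMIs at equal depth, the share with Apoc1 was 10.4% in the lowest group and 17.99%, 17.7% and 19.7% in the others. In principal 12 to 15, cells with Apoe held Apoc1 in 13.95% of cases (6 of 43) and cells without Apoe in 15.2% (103 of 679). The highest count in a main basal cell was 68 Apoc1 UMIs, and 257 of 917 main basal cells held any before thinning.

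Abca1, the exporter that loads cholesterol onto lipid-poor apolipoproteins, had its highest levels outside the epithelium. Endothelial cells held 283 UPM and immune cells 242 UPM, which were not apart beyond counting error (ratio 1.17, 0.943 to 1.45). Stromal cells had 111 UPM and muscle cells 99.0 UPM, again not apart, and then came clear cells with 56.1 UPM, basal cells with 48.7 UPM and principal cells with 29.4 UPM. Abca1 led no type. Which of endothelial and immune cells was higher differed between libraries. From caput to cauda the ratio of endothelial to immune cells was 2.67, 2.93 and 2.03, with a caput interval that held 1 (0.844 to 13.5), and it was 0.636 in the vas deferens (0.460 to 0.879).

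Among the populations, Abca1 was highest in macrophages (359 UPM), Trem2 macrophages (357 UPM), basal-macrophage cells (300 UPM from 7 UMIs), endothelial cells (283 UPM) and the stromal population fibroblast C4 (278 UPM). T cells held 2 UMIs and dendritic cells 1 UMI. Krt14 clear cells held 252 UPM from 11 UMIs against 50.1 UPM in the other clear cells, a ratio of 5.03 (2.40 to 9.56), and 294 UPM without the 13 doubtful cells of the vas deferens. Muscle cells 1 held 192 UPM and muscle cells 2 held 76.1 UPM. These higher levels went with shallow cells. Among cells of at least 1000 UMIs the ratio for Krt14 clear cells was 5.46. The mean of each cell's own level kept the order, with 225 UPM in Krt14 clear and 60.2 UPM in main clear cells. It was 183 UPM in muscle cells 1 and 73.8 UPM in muscle cells 2, and 304 UPM in fibroblast C4 and 95.9 UPM in fibroblast C2. Counts per cell, which fall with depth, had the other order. Krt14 clear cells (median 698.5 UMIs) held a mean of 0.204 Abca1 UMIs per cell against 0.269 in main clear cells (median 5328 UMIs), muscle cells 1 held 0.221 against 0.388 in muscle cells 2, and fibroblast C4 held 0.245 against 0.386 in fibroblast C2.

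Abca1 was higher at the start of the duct in both basal and principal cells. In basal cells it was 111 UPM in the caput, 31.2 UPM in the corpus, 24.1 UPM in the cauda and 32.6 UPM in the vas deferens, so that the caput stood 3.42 times above the next library. In principal cells it was 73.1, 28.9, 18.4 and 17.5 UPM, and the caput was 4.17 times the vas deferens (3.14 to 5.58). Principal 1 to 4 held 77.7 UPM against 22.0 UPM in principal 5 to 11 (3.53 times, 2.64 to 4.75). Endothelial cells had another order, with 261 UPM in the caput, 456 UPM in the corpus, 669 UPM in the cauda (12 cells) and 163 UPM in the vas deferens. Stromal cells ranged from 72.9 UPM in the caput to 146 UPM in the corpus.

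Scarb1, the receptor for high-density lipoprotein, led endothelial cells with 291 UPM, 6.61 times the 44.0 UPM of principal cells (5.62 to 7.76). Of all genes tested, 2.88% led endothelial cells. Clear cells had 15.7 UPM, basal cells 11 UPM, stromal cells 10.3 UPM, immune cells 5.15 UPM and muscle cells 1.31 UPM, and no neighbours among these 5 differed beyond counting error. Endothelial cells were ahead in each library, with 353 UPM in the caput, 414 UPM in the corpus, 348 UPM in the cauda and 218 UPM in the vas deferens. The ratio of endothelial to principal cells was 5.69, 53.4, 151 and 3.41 in the same order, and it was widest where principal cells had almost none. Without the vas deferens library the ratio over the others was 15.1.

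In principal cells Scarb1 marked both ends of the duct. It was 62.1 UPM in the caput (107 UMIs), 7.75 UPM in the corpus (11 UMIs), 2.30 UPM in the cauda (4 UMIs) and 63.9 UPM in the vas deferens (299 UMIs). The caput and the vas deferens were not apart (ratio 1.03, 0.822 to 1.29), and the vas deferens was 27.8 times the cauda (10.7 to 103). Principal 1 to 3 held 45.1 to 79.4 UPM and principal 12 to 15 held 61.1 to 68.8 UPM. Principal 6, 8 and 10 held 0 UMIs, where the floor of 3 UMIs would be 7.05, 3.56 and 8.50 UPM. Principal 1 to 4 together were 11.4 times principal 5 to 11 (7.00 to 19.3).

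Npc2, the soluble cholesterol-binding protein of lysosomes and epididymal fluid, was highest in principal cells at 1812 UPM. Immune cells had 1392 UPM (ratio 1.30, 1.21 to 1.40) and clear cells 851 UPM, and lower levels followed in basal (301 UPM), endothelial (285 UPM) and stromal cells (255 UPM), whose neighbours were not apart. Muscle cells held 56.4 UPM. The first place of principal cells rested on the corpus library. From caput to vas deferens the ratio of principal to immune cells was 1.42, 6.81, 0.892 and 0.225, and over the 3 libraries other than the corpus it was 0.539. Without the vas deferens library it was 2.82.

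Within principal cells Npc2 was 1717 UPM in the caput, 7728 UPM in the corpus, 1002 UPM in the cauda and 355 UPM in the vas deferens, a range of 21.8 times (20.7 to 22.9). The corpus stood alone, 4.50 times above the caput. The peak lay in a run of neighbouring populations, principal 3 (3356 UPM), principal 4 (7555 UPM), principal 5 (4607 UPM), principal 6 (10083 UPM) and principal 7 (7536 UPM). Together these 5 held 6976 UPM against 586 UPM in all other principal cells (11.9 times, 11.5 to 12.3). Npc2 ranked 11 among all genes by UMIs in principal 6 and 10 in principal 7. In principal 6, 99.3% of thinned cells (82.4% without thinning, at a median of 787 UMIs) held an Npc2 UMI, against 33.3% (10 of 30) of T cells (40.9% without thinning).

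Npc2 had a narrower range along the duct in the other types. Immune cells held 1209, 1135, 1123 and 1576 UPM from caput to vas deferens, and their levels were spread over Trem2 macrophages (1795 UPM), dendritic cells (1711 UPM), macrophages (1467 UPM) and T cells (643 UPM). Clear cells held 605, 1032, 929 and 421 UPM. Basal cells held 285, 382, 176 and 257 UPM, and here as in principal and clear cells the corpus was highest. In clear cells, however, the interval of the corpus (942 to 1129) overlapped that of the cauda (852 to 1011). In basal cells the range fell from 2.17 to 1.68 times without called doublets.

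Taking the libraries within principal cells as the groups, 4 of the 5 genes (Apoe, Apoc1, Abca1 and Npc2) were at least 2 times higher in 1 library than in every other, against 19.1% of all 9854 genes tested. The libraries were the caput for Apoe and Abca1, the corpus for Npc2 and the vas deferens for Apoc1. The lead of Apoe was lost without the cells that held a UMI of Krt5, Krt14 or Trp63, when the caput was 1.67 times the corpus (1.48 to 1.88). Within basal cells, 1 of the 4 genes with enough UMIs, Abca1 in the caput, did so, against 9.47% of 7800 genes. Scarb1 was not counted there, since it had at most 18 UMIs in a library.

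Other genes of cholesterol handling were taken from 7 lists that hold 83 genes, the 5 members included. The lists too were chosen with earlier results of these data known. In all 71 had enough UMIs to be counted, and 29 of them led a type, against 24.0% of all genes. Of these, 17 led principal cells, against 4.52% of all genes. Of 6 apolipoproteins 2 led a type, Apoc1 in basal cells and Apod in stromal cells (688 UPM, against 27.5 UPM in endothelial cells). Clu, which encodes clusterin, a secreted lipid-binding chaperone, led none, with 3034 UPM in principal and 1650 UPM in basal cells. The other small genes of the Apoe cluster were nearly silent, with 20 UMIs of Apoc2 and 32 of Apoc4 in all cells.

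**Figure D5:**
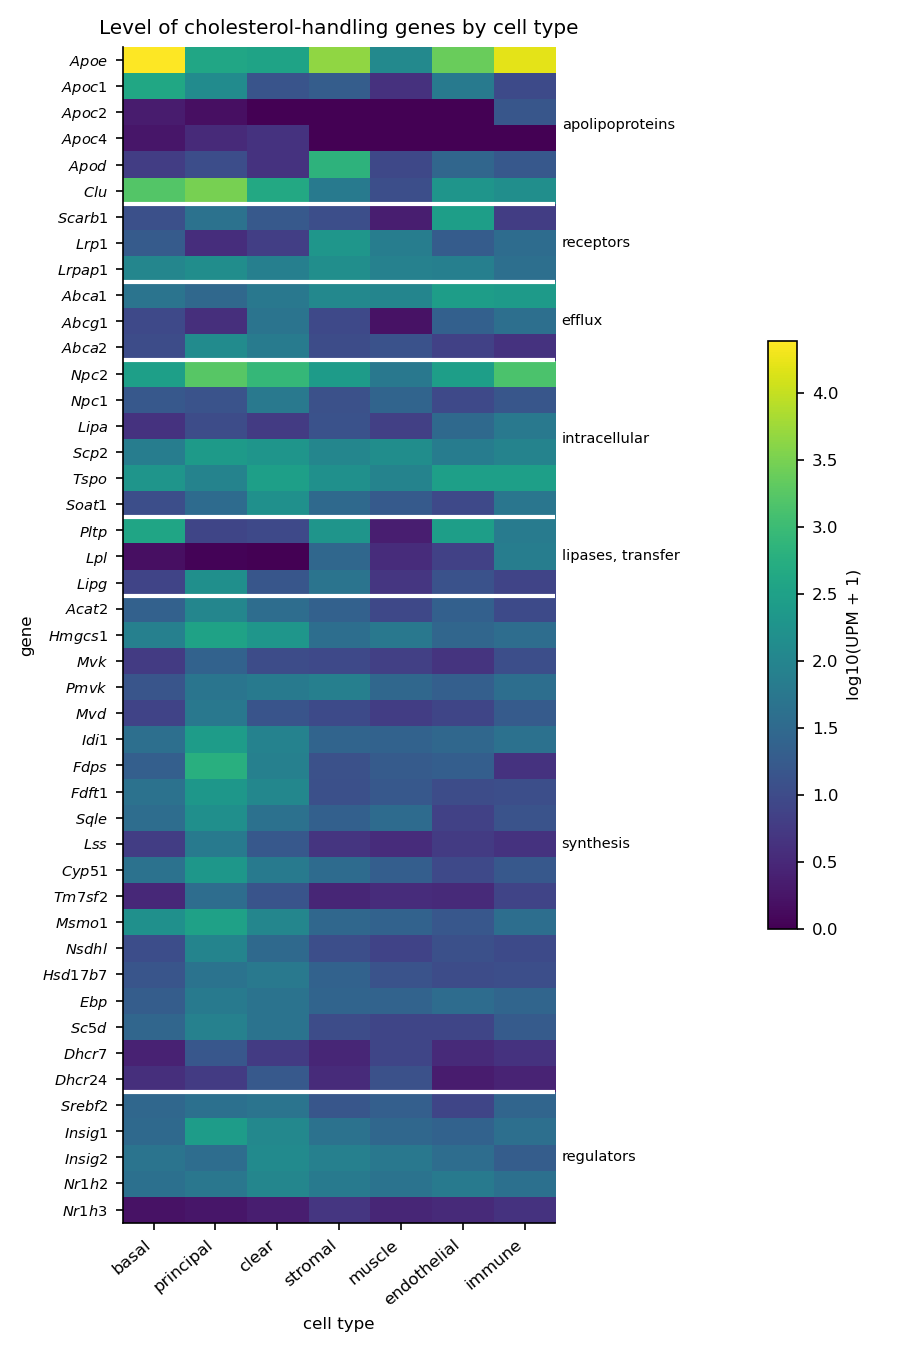
Heat map of named genes of cholesterol handling (rows) in the 7 cell types (columns), coloured by log10 of the level in UPM plus 1. Apoe is the brightest row in basal, immune and stromal cells, and most synthesis genes, such as Fdps and Msmo1, are brightest in principal cells.

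Of 10 receptor genes 4 led a type, against 24.0% of all genes. These were Lrp2 in principal cells, Lrp1 in stromal cells (199 UPM), Scarb1 in endothelial cells and Cd36, a fatty acid and lipoprotein receptor, in immune cells (148 UPM). Among 4 efflux genes 1 led, Abca2 in principal cells, which is near the 24.0% of all genes. Abcg1, which exports cholesterol to mature particles, had 48.6 UPM in clear and 39.5 UPM in immune cells. Of 13 genes of intracellular transport and storage 4 led, also near the share of all genes. Among them were Npc1, the membrane partner of NPC2, and Soat1, which esterifies cholesterol, both in clear cells (59.5 and 159 UPM). Npc1 in principal cells was 24.4 UPM in the caput, 19.7 UPM in the corpus, 10.4 UPM in the cauda and 6.83 UPM in the vas deferens, and so did not share the corpus peak of Npc2.

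Of 6 lipases and transfer proteins 3 led a type, against 24.0% of all genes. These were Lipg in principal cells (155 UPM), Gpihbp1 in endothelial cells (249 UPM) and Lpl in immune cells (70.4 UPM). Pltp, the phospholipid transfer protein, was highest in basal cells, as Apoe was, with 377 UPM there, 287 UPM in endothelial cells, 195 UPM in stromal cells and 65.3 UPM in immune cells, where Apoe was second. Cholesterol synthesis was the most uniform list, in which 13 of 20 genes led principal cells and 17 were highest there. Of all 12868 genes tested, 581 (4.52%) led principal cells and 1897 were highest there. At 4 times in place of 2, Fdps alone of the synthesis genes still led. The 20 genes summed to 3028 UPM in principal cells, 1110 UPM in clear cells, 602 UPM in basal cells and 255 UPM in endothelial cells. In principal cells the sum was 1705 UPM in the caput, 1609 UPM in the corpus, 3871 UPM in the cauda and 3632 UPM in the vas deferens. Of 12 regulators 2 led, below the 24.0% of all genes. These were Insig1, a brake on cholesterol synthesis, in principal cells (261 UPM) and Cyp27a1, which oxidises cholesterol, in stromal cells.

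The genes most like each member were sought over the 34 populations, by Pearson's r of log2 levels with 10 UPM added, among 9280 genes with at least 200 UMIs. Apoe was most like Pltp (r = 0.85), Plaur (0.85), Tor3a (0.84), Alpk1 (0.82) and Runx1 (0.82). Apoc1 was most like Crip2 (0.75), Abca1 like Mmp14 (0.83), B4galt5 (0.83) and Axl (0.81), Scarb1 like Ppp2r5b (0.73), and Npc2 like Agpat3 (0.76), AY761185 (0.76) and Crisp4 (0.74). Among the 5 genes the most similar pairs were Apoe with Abca1 (0.68) and Apoc1 with Scarb1 (0.41), and the neighbours Apoe and Apoc1 had r = 0.32. The populations share libraries and differ in depth, and these values are descriptions.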

How the data were processed

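Single-cell RNA was measured by 10x 3' V2 chemistry in 4 libraries, 1 for each segment. The deposited values are UMI counts per gene and cell. According to the study's methods and the submitters' processing notes, the authors used bcl2fastq, aligned reads with HISAT2 2.0.4 to mm10, counted UMIs per gene at 3' ends with multimapping reads ignored, kept barcodes of 350 to 14999 UMIs and removed cell-free RNA with a modified SoupX. Reads that fit several places are therefore absent. The counts are those left after the subtraction, and its part in the low counts was not tested. Populations are the authors' annotation, and its principal numbers were matched to the study's order by their numbers of cells. The order of principal 14 and 15 is unsure, and no result here turns on it.

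UMIs were summed over cells, and levels were given per 1000000 UMIs with exact Poisson intervals. Ratios have exact conditional binomial intervals and shares Clopper-Pearson intervals, all at 95%, and 3 UMIs stand for a count of 0. For shares, each cell was thinned to 1000 UMIs (5703 cells were deep enough). With 1 library in each group no test and no p-value was computed, and intervals cover counting error only. The scripts were tested on simulated data. The 5 genes and the 7 gene lists were chosen with earlier results of these data known. Genes of the lists were named from among the 3 with the most UMIs in each list, a fixed set of partners and genes that led a type. The last were picked after their values were seen, and not all genes of these 3 kinds are named. Some genes of the lists are counted but not reported here by name. In all 43 barcodes were shared between libraries (86 cells). A doublet caller written for this work marked 178 cells, a number set beforehand at 0.8% per 1000 cells of a library. Of simulated doublets, 32.9% (cauda) to 58.4% (vas deferens) scored at or above the cut, so the marked cells may not be all doublets present. They were left out only as an alternative. Alternatives covered depth, weighting, the denominator, thinning, the fold for a lead and the measure of likeness, and 9 were added after seeing the data. The tools were Python 3.11.15 with scipy 1.17.1 for intervals, scikit-learn 1.9.0 for doublets, numpy 2.4.6, matplotlib 3.10.9 and pandas 2.3.3.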

Additional observations from a re-analysis of the deposited data

Results flagged for a closer look

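For 3 of the 5 genes the vas deferens lay above the caput in some cell types and below it in others, each beyond counting error. The difference between types was itself not tested, and each segment is 1 library. For Apoe the ratio of vas deferens to caput was 28.6 in clear cells, which is 1722 against 60.2 UPM, 2.47 in stromal cells and 1.14 in endothelial cells. Without the 13 Krt14 clear cells whose markers go against the label the clear cell ratio was 11.98, with the vas deferens value resting on 8 of 25 cells. Without the stem-like population the stromal ratio was 1.17. The Apoe ratio was 0.488 in basal cells, 0.0607 in principal cells and 0.410 in immune cells. The direction in immune cells turned without Trem2 macrophages, with 8331 UPM in the vas deferens against 2771 UPM in the 8 caput cells left. For Apoc1 the ratio was 6.83 in principal cells, 0.640 in basal cells, 0.602 in stromal cells and 0.00636 in endothelial cells, where the caput value rests on 1 cell. For Npc2 it was 1.84 in stromal cells, 1.74 in endothelial cells, 0.207 in principal cells and 0.695 in clear cells.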

How the results depend on the processing

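In all 26 results were recomputed in 105 alternative values. Of these 55 stayed within counting error of the reported value or within 1.5 times a reported count, 46 moved and 4 turned in direction. The ratio of endothelial to immune cells for Abca1 (1.17) became 0.764 as a mean over cells and 0.915 without the corpus library. The ratio of principal to immune cells for Npc2 (1.30) became 0.539 without the corpus library. The ratio of caput to vas deferens for Apoe in immune cells (2.44) became 0.333 without Trem2 macrophages. That alternative was chosen after seeing the data and left 8 caput cells. The cause was not tested.

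Without each library in turn, the ratio of the highest to the next type ranged from 1.23 to 1.67 for Apoe, 2.35 to 23.7 for Apoc1 (highest without the vas deferens), 0.915 to 1.90 for Abca1, 5.18 to 15.1 for Scarb1 (highest without the vas deferens) and 0.539 to 2.82 for Npc2 (highest without the vas deferens). With the mean of each cell's own level it was 2.29 for Apoe, 4.39 for Apoc1 and 2.08 for Npc2, and with the mean of the libraries 1.13 for Apoe, 5.48 for Apoc1, 1.84 for Abca1, 9.80 for Scarb1 and 2.14 for Npc2. In cells of at least 1000 UMIs it was 1.45 for Apoe and 1.20 for Npc2, and without the 50 most abundant genes in the denominator 1.49 for Apoe and 2.89 for Apoc1. Those 2 settings gave 2.09 and 2.10 for the library range of Apoe in basal cells, and the second gave 19.2 for Npc2 in principal cells. Without called doublets the library range was 78.9 for Apoe in principal cells and 1.68 for Npc2 in basal cells.

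The share of basal cells with Apoe was 97.2% at 500 UMIs, 97.5% without thinning and 98.3% for at least 2 UMIs. For Apoc1 it was 12.2%, 25.0% and 8.83%, and among cells with Apoe 12.6% at 500 UMIs and 25.7% without thinning. At 4 times in place of 2, 7 list genes led a type in place of 29. The share of all genes at 4 times was not computed. Among the synthesis genes Fdps (7.28 times the next type) still led, and Lss, at 3.99, came closest to it. Of the 25 most similar genes, 11 remained with 1 UPM added, 9 with Spearman's measure and 12 in cells of at least 1000 UMIs. Leaving out the basal-macrophage cells, chosen after seeing the data, gave a ratio of 1.496 and a level of 23896 UPM for Apoe. Leaving out principal cells with Krt5, Krt14 or Trp63, also chosen after seeing the data, gave a library range of 34.1 for Apoe and a ratio of caput to corpus of 1.67 in place of 3.30. Of the same kind, the ratio of vas deferens to caput for Apoe became 11.98 in clear cells without the 13 Krt14 clear cells of the vas deferens and 1.17 in stromal cells without the stem-like population. Scarb1 had 4 to 18 UMIs in several groups, and 12 endothelial cells stand for the cauda, which limits these values.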
